A study of Mus musculus with 6 samples.

Results

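AMPA and kainate receptors are the glutamate-gated cation channels of fast excitatory synapses. The data describe 10 genes of these receptors in P14 mouse retina, out of 11339 genes with a deposited expression value. They are the AMPA receptor subunit genes *Gria1*, *Gria2*, *Gria3* and *Gria4*, the kainate receptor subunit genes *Grik1*, *Grik2*, *Grik3* and *Grik5*, and the auxiliary subunit genes *Neto1* and *Neto2*. *Neto1* was chosen by its genotype difference, since it was the lowest of a set of bipolar markers in these samples, and the other 9 genes were then taken by name as its receptor partners. The difference of *Neto1* between the genotypes is therefore given as a description, with no test. All 10 genes were listed, so that no member was lost to the filter on low counts.

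RNAseq was done on 3 *Mll1KO* and 3 WT samples of whole retina, each made from a pair of retinas. *Mll1KO* mice (MLL1 fl/fl, Chx10-Cre) carry floxed alleles of *Mll1*, a histone H3K4 methyltransferase gene, and Cre recombinase expressed in retinal progenitor cells. The labels give C57Bl6/J as the strain of both groups, and the WT mice are labeled only as wild type, with no Cre control named, so that deletion and Cre cannot be told apart in this comparison. The sources used here do not say whether a pair of retinas came from 1 animal.

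Expression is given as RPKM, reads scaled to the length of the gene and to the total of the library. Samples of a genotype are lettered a, b and c, and their values are given in that order. The recovered totals of the WT libraries were 23836033, 19777205 and 19323512 reads, and those of the *Mll1KO* libraries 23348923, 19855963 and 17961097 reads. At this depth the least covered member value, *Neto1* in *Mll1KO* sample c, rested on 196 reads and the best covered, *Grik5* in WT sample a, on 4548 reads. Genotypes were compared with limma on log2(RPKM + 1), a scale that understates changes of genes with low RPKM, and a gene was called at an adjusted p under 0.05 over all 11339 genes. *Kmt2a*, as *Mll1* is now named and the gene targeted here, had an RPKM of 36.1, 36.9 and 34.6 in the WT samples and of 22.9, 20.4 and 22.3 in the *Mll1KO* samples. All *Mll1KO* samples lay below all WT samples (log2 fold change -0.69, limma adjusted p = 2.77e-05). The value sums reads over the whole gene, including exons that Cre does not remove.

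In an AMPA receptor, subunits assemble as a tetramer, and the subunit encoded by *Gria2*, once its transcript is edited, makes the channel nearly impermeable to calcium. Kainate receptors are tetramers as well. The products of *Grik1*, *Grik2* and *Grik3* can form channels of their own, whereas those of *Grik4* and *Grik5* bind kainate with high affinity but need one of the former to make a working channel. Neto proteins span the membrane next to kainate receptors and slow their closing. In the retina, photoreceptors signal to OFF BCs and HCs through AMPA and kainate receptors, whereas ON BCs use the metabotropic receptor encoded by *Grm6*. BCs in turn excite ACs and GCs largely through AMPA receptors.

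Among the 9 members other than *Neto1*, *Grik1*, *Grik2*, *Grik3* and *Gria4* were lower in *Mll1KO*. These are 4 of 9 genes called lower, where 14.5% of all genes were called lower. No member was called higher by limma, where 8.81% of all genes were called higher, and with limma-voom on the recovered reads the count of higher members was 0 too, where 9.54% of all genes were called higher. At an unadjusted p under 0.05, 6 of 9 members were lower and 0 higher, where 23.3% of all genes were lower and 13.6% higher. In 5 of the 9 genes every *Mll1KO* sample lay below every WT sample, and in 1 gene, *Gria3*, every *Mll1KO* sample lay above. Over all genes these shares were 26.5% and 14.6%. With TMM or RLE factors the count of lower members was 2, *Grik1* and *Grik3*, where 10.3% and 9.93% of all genes were called lower. It was 2 as well without WT sample b, where 9.08% of all genes were called lower, or without *Mll1KO* sample b, where 10.4% were. The median log2 fold change of the 9 genes was -0.15, and that of all genes was -0.03. In bulk retina, fewer cells of a type and less RNA per cell cannot be told apart for any of these genes. The genes were chosen with results of this comparison known, so nothing is read from the counts.

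**Figure D1:**
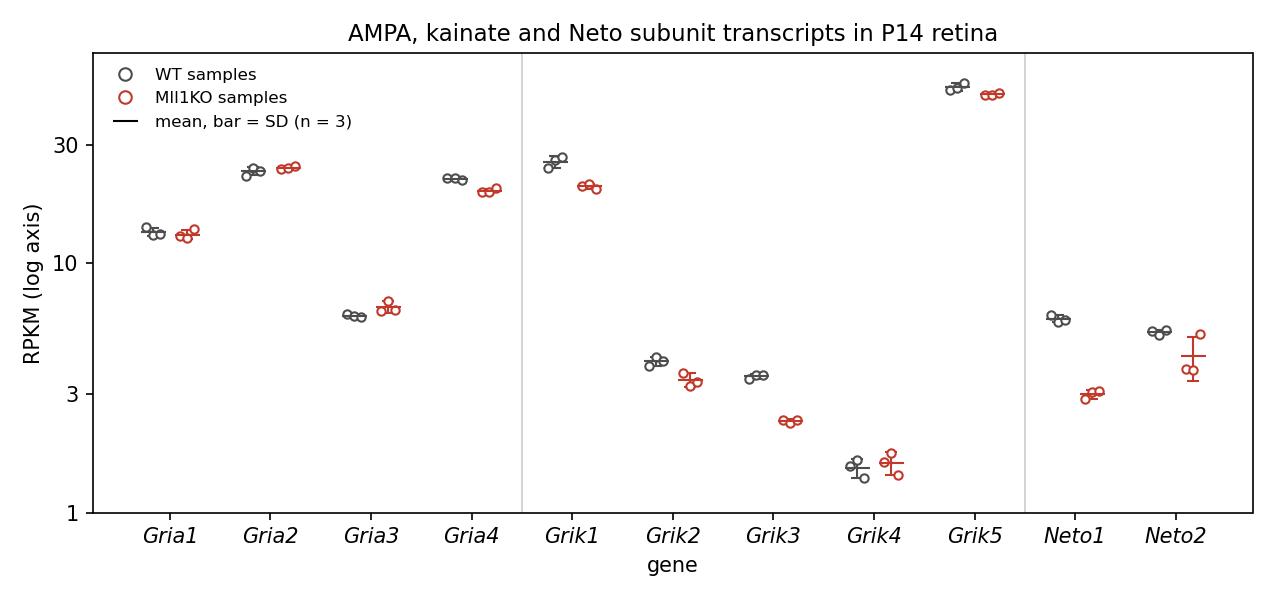
RPKM (log axis) of the 10 member genes and of *Grik4*, with 1 open circle per sample, a horizontal line at the mean of each genotype and bars for the SD (n = 3). The *Neto1* samples lie between 5.83 and 6.20 in WT and between 2.85 and 3.09 in *Mll1KO*, while the *Gria1* and *Gria2* samples of both genotypes overlap.

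*Neto1* (ENSMUSG00000050321) spans bases 86394952 to 86506718 of chromosome 18 (plus strand) in GRCm38, the build of all positions given. Its RPKM was 6.20, 5.83 and 5.95 in the WT samples and 2.85, 3.04 and 3.09 in the *Mll1KO* samples. The genotypes were thus far apart and the samples within each genotype close together, with means of 5.99 ± 0.191 in WT and 2.99 ± 0.126 in *Mll1KO* (SD, n = 3 each), or 49.9% of WT. On the log2(RPKM + 1) scale the difference was -0.81, and limma-voom on the recovered reads, which adds no such pseudocount to RPKM, placed it at -1.01. Only 27 of the 11339 genes had a lower log2 fold change. *Neto1* had been selected as the BC marker with the lowest value, and of the 15 BC markers listed here 0 had a lower log2 fold change.

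*Neto2* (ENSMUSG00000036902) encodes the other Neto protein and spans bases 85636588 to 85700924 of chromosome 8 (minus strand). Its RPKM was 5.35, 5.17 and 5.40 in the WT samples and 3.76, 3.73 and 5.22 in the *Mll1KO* samples. *Mll1KO* samples a and b lay below WT, whereas sample c lay within the WT range. The log2 fold change was -0.28 (95% interval -0.50 to -0.06) and was not called (limma adjusted p = 0.0633). Without *Mll1KO* sample c it was -0.41 and called (limma adjusted p = 0.00271), and with limma-voom it was -0.36 and called (adjusted p = 0.022), with adjusted p from 0.000184 to 0.181 across the settings run.

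Of the kainate receptor genes, *Grik3* (ENSMUSG00000001985, chromosome 4 from 125490700 to 125714173, plus strand) had the lowest log2 fold change. Its RPKM was 3.43, 3.58 and 3.56 in the WT samples and 2.36, 2.28 and 2.35 in the *Mll1KO* samples. The spread within each genotype was small beside the gap between them, and *Grik3* fell to 66.1% of WT (log2 fold change -0.44, 95% interval -0.55 to -0.33, limma adjusted p = 0.000296).

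*Grik1* (ENSMUSG00000022935, chromosome 16 from 87895900 to 88290265, minus strand) was the most abundant of the kainate receptor genes whose products form channels of their own. Its RPKM was 24.1, 25.9 and 26.7 in the WT samples and 20.4, 20.8 and 20.0 in the *Mll1KO* samples. The groups did not overlap, and *Grik1* fell to 79.7% of WT (log2 fold change -0.31, 95% interval -0.42 to -0.21, limma adjusted p = 0.0015). *Grik1* and *Grik3* were called lower in all settings that were run, with adjusted p up to 0.00932 and 0.00261.

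*Grik2* (ENSMUSG00000056073, chromosome 10 from 49094833 to 49788766, minus strand) had an RPKM of 3.87, 4.22 and 4.05 in the WT samples and of 3.64, 3.22 and 3.35 in the *Mll1KO* samples. Although all *Mll1KO* samples were below WT, *Mll1KO* sample a and WT sample a lay close together. The log2 fold change was -0.20 (95% interval -0.33 to -0.07, limma adjusted p = 0.035). It was no longer called with TMM factors (-0.17, limma adjusted p = 0.0557) and RLE factors (-0.17, limma adjusted p = 0.0565). The call was also lost without WT sample b (-0.17), WT sample c (-0.20), *Mll1KO* sample b (-0.17) or *Mll1KO* sample c (-0.19), and with a term for the replicate letter, the replicate block (adjusted p = 0.0748), the limma adjusted p ranging from 8.44e-05 to 0.123 over all settings.

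*Grik5* (ENSMUSG00000003378, chromosome 7 from 25009849 to 25072346, minus strand), whose product joins other kainate receptor subunits, had the highest RPKM of all members. In the WT samples it was at 49.7, 50.7 and 53.1, and in the *Mll1KO* samples at 47.7, 47.6 and 48.2. All *Mll1KO* samples lay below WT, by 6.57% on average, but the gene was not called (log2 fold change -0.10, 95% interval -0.18 to -0.01, limma adjusted p = 0.105). *Grik4*, which is no member but belongs to the same family, was the weakest of the Grik genes, with values from 1.37 to 1.74 in the 6 samples and overlapping genotypes.

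Of the AMPA receptor genes, *Gria4* (ENSMUSG00000025892, chromosome 9 from 4417896 to 4796234, minus strand) was the one called. Its RPKM was 22.1, 22.1 and 21.6 in the WT samples and 19.4, 19.4 and 20.0 in the *Mll1KO* samples. The genotypes were apart by more than the spread within either, although the difference was small, at 89.4% of WT (log2 fold change -0.15, 95% interval -0.24 to -0.07, limma adjusted p = 0.0192). The call was lost with TMM (-0.12, limma adjusted p = 0.0532) and RLE factors (-0.12, limma adjusted p = 0.0572). Without WT sample b (-0.15, limma adjusted p = 0.0719) or *Mll1KO* sample b (-0.15, limma adjusted p = 0.0597) it was lost as well, with a range from 1.27e-05 to 0.0719 over all settings.

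*Gria2* (ENSMUSG00000033981, chromosome 3 from 80681450 to 80802835, minus strand) was the most abundant AMPA receptor gene, with 22.5, 24.2 and 23.6 RPKM in the WT samples and 24.0, 24.1 and 24.5 in the *Mll1KO* samples. The genotypes overlapped, and the 95% interval of the log2 fold change ran from -0.05 to 0.14 (limma adjusted p = 0.492). *Gria1* (ENSMUSG00000020524, chromosome 11 from 57011387 to 57330244, plus strand) also overlapped, with 13.04 to 13.95 RPKM in WT and 12.6 to 13.7 in *Mll1KO* and an interval from -0.14 to 0.08 (limma adjusted p = 0.714). *Gria3* (ENSMUSG00000001986, chromosome X from 41400854 to 41678601, plus strand) had 6.25, 6.13 and 6.12 RPKM in the WT samples and 6.45, 7.09 and 6.52 in the *Mll1KO* samples. The *Mll1KO* samples of *Gria3* were all above WT, and the gene was not called (log2 fold change 0.10, 95% interval -0.02 to 0.22, limma adjusted p = 0.2).

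**Figure D2:**
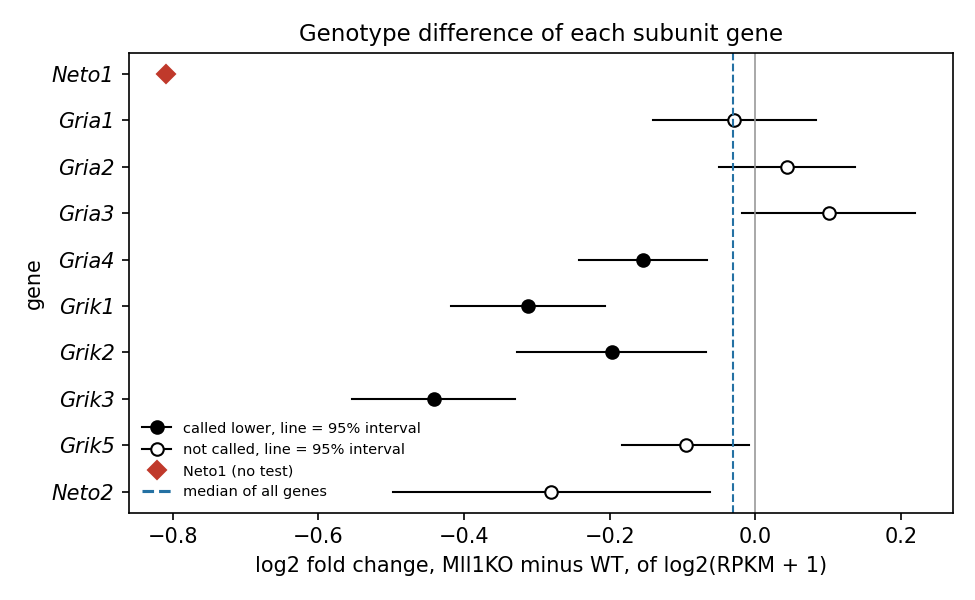
Log2 fold change of each member gene, *Mll1KO* minus WT, on the log2(RPKM + 1) scale (horizontal axis), with lines for the 95% interval from limma, filled circles for genes called lower, open circles for genes not called, and a dashed line at the median of all genes (-0.03). *Neto1* at -0.81 is drawn without an interval because its difference chose the set, and the called genes run from *Grik3* at -0.44 to *Gria4* at -0.15.

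These directions depend on how the libraries are scaled. With an equal sum over rod genes in place of library totals, the median of all genes moved from -0.03 to -0.32, a shift of -0.29, and all 9 genes were then called lower, where 84.7% of all genes were. *Gria2* (-0.27) and *Gria3* (-0.18) changed direction. Relative to the median of all genes under that scaling, *Gria3* was at 0.14, *Gria2* at 0.05, *Gria1* at -0.02, *Gria4* at -0.15, *Grik5* at -0.10, *Grik2* at -0.14, *Neto2* at -0.23, *Grik1* at -0.31, *Grik3* at -0.37 and *Neto1* at -0.75. The amount of RNA per retina was not measured here, and its part in these values was not tested.

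The RPKM of different genes was compared per length of the gene as the authors counted it. The length behind the RPKM equalled the exon length of the GENCODE vM21 annotation for *Gria1*, *Gria3*, *Grik3* and *Grik4*. For *Neto1* it was 3531 of 8352 bases, for *Gria2* 6956 of 15548, for *Grik1* 3137 of 6721, for *Grik2* 8272 of 13246 and for *Grik5* 3836 of 5168, so that levels between genes rest on the gene models of the authors' annotation. In WT the order by mean RPKM was *Grik5*, *Grik1*, *Gria2*, *Gria4*, *Gria1*, *Gria3*, *Neto1*, *Neto2*, *Grik2* and *Grik3*, and the samples of neighbours overlapped for *Grik1* and *Gria2* and for *Gria3* and *Neto1*. In *Mll1KO* the order was *Grik5*, *Gria2*, *Grik1*, *Gria4*, *Gria1*, *Gria3*, *Neto2*, *Grik2*, *Neto1* and *Grik3*, and *Grik1* and *Gria4* overlapped. *Neto1* thus stood at rank 7 in WT, with samples that overlapped those of *Gria3*, and at rank 9 in *Mll1KO*, below every sample of *Neto2* and *Grik2*. At most 2.62% of the exon bases of a member, in *Neto1*, also lay in exons of another annotated gene.

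The make-up of each receptor family does not change with library scaling, and was compared as shares of the summed RPKM. With 3 against 3 samples the exact permutation test cannot give a two-sided p below 0.1, and 10 shares and ratios were compared, so no share could pass 0.05. *Gria4* made up 34.1%, 33.7% and 33.5% of the summed *Gria1* to *Gria4* RPKM in the WT samples, and 30.9%, 30.7% and 30.9% in the *Mll1KO* samples. The *Gria4* share was lower in all *Mll1KO* samples (exact permutation test, two-sided p = 0.1, adjusted p = 0.143). The share of *Gria2* was higher, at 36.1% ± 1.21 in WT and 38.1% ± 0.191 in *Mll1KO* (SD, n = 3 each). So was that of *Gria3*, at 9.50% ± 0.134 and 10.5% ± 0.61 (SD, n = 3 each). Both had groups apart (exact permutation test, two-sided p = 0.1, adjusted p = 0.143 for each). Without WT sample a the *Gria2* difference went from 1.94 to 1.25 percentage points. That of *Gria3* went from 1.03 to 0.68 without *Mll1KO* sample b. *Gria1* stayed within its spread, at 20.6% in both genotypes (exact permutation test, two-sided p = 1).

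The Grik sum was taken over *Grik1* to *Grik5*, since *Grik4* is listed too. *Grik5*, the subunit that needs partners, made up 59.6% ± 0.655 of this sum in WT and 63.3% ± 0.603 in *Mll1KO* (SD, n = 3 each). *Grik1* made up 29.8% ± 0.563 and 27.0% ± 0.476 (SD, n = 3 each) and *Grik3* 4.11% ± 0.0835 and 3.09% ± 0.0654 (SD, n = 3 each). The groups were apart for these 3 shares (exact permutation test, two-sided p = 0.1, adjusted p = 0.143 for each). The shares of *Grik2* (4.72% and 4.51%, exact permutation p = 0.4) and *Grik4* (1.77% and 2.10%, exact permutation p = 0.2) overlapped between the genotypes. The summed Gria RPKM was 64.9 ± 0.574 in WT and 63.5 ± 1.11 in *Mll1KO* (SD, n = 3 each), with overlapping groups, and the summed Grik RPKM was 85.9 ± 3.09 and 75.5 ± 0.258 (SD, n = 3 each), with groups apart. The ratio of the Gria sum to the Grik sum was 0.785, 0.761 and 0.724 in the WT samples and 0.828, 0.835 and 0.861 in the *Mll1KO* samples. It was higher in every *Mll1KO* sample (exact permutation test, two-sided p = 0.1, adjusted p = 0.143). In reads not divided by length, its genotype difference was 0.164 against 0.085 with RPKM. Differences of the shares were then -2.18 against -1.02 percentage points for *Grik3*, -0.35 against -0.21 for *Grik2* and 0.51 against 0.33 for *Grik4*.

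*Neto1* was then set against its receptor partners, as values only, because its difference chose the set. Relative to the kainate receptor genes, *Neto1* RPKM was 7.50%, 6.77% and 6.70% of the Grik sum in the WT samples and 3.77%, 4.01% and 4.11% in the *Mll1KO* samples. *Neto2* RPKM was 6.19% ± 0.253 of the Grik sum in WT and 5.61% ± 1.15 in *Mll1KO* (SD, n = 3 each), with overlapping groups. Between the Neto genes, *Neto1* gave 53.7%, 53.0% and 52.4% of their summed RPKM in the WT samples and 43.1%, 44.9% and 37.2% in the *Mll1KO* samples. By RPKM *Neto1* was thus the higher of the Neto genes in all WT samples and the lower in all *Mll1KO* samples. In reads not divided by length *Neto1* was the lower in WT too, with 522, 407 and 406 reads against 716, 574 and 585 of *Neto2*, so the order in WT rests on the length of 3531 bases counted for *Neto1*.

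Against single partners, the ratio came closest to WT for *Grik3*, the partner with the lowest fold change. The ratio lay farthest from WT for *Gria3*, the partner with the highest. This order largely restates the fold changes of the partners, since all ratios share *Neto1* as numerator. Per 100 RPKM of *Grik3* there were 170.2 ± 9.59 RPKM of *Neto1* in WT and 128.5 ± 6.84 in *Mll1KO* (SD, n = 3 each), or 75.5% of WT. For *Gria3* the numbers were 97.2 ± 2.14 and 44.8 ± 2.33 (SD, n = 3 each), or 46.1% of WT. The ratio to *Grik1* was 62.5% of WT, that to *Grik2* 59.5%, that to *Grik5* 53.4% and that to *Neto2* 63.9%. In all of these ratios the *Mll1KO* samples lay below the WT samples. Of the BC markers, the ratio of *Neto1* to *Vsx1*, a transcription factor gene of cone BCs, was 79.5, 72.1 and 68.6 per 100 RPKM in the WT samples and 66.0, 62.8 and 61.4 in the *Mll1KO* samples, or 86.4% of WT.

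**Figure D3:**
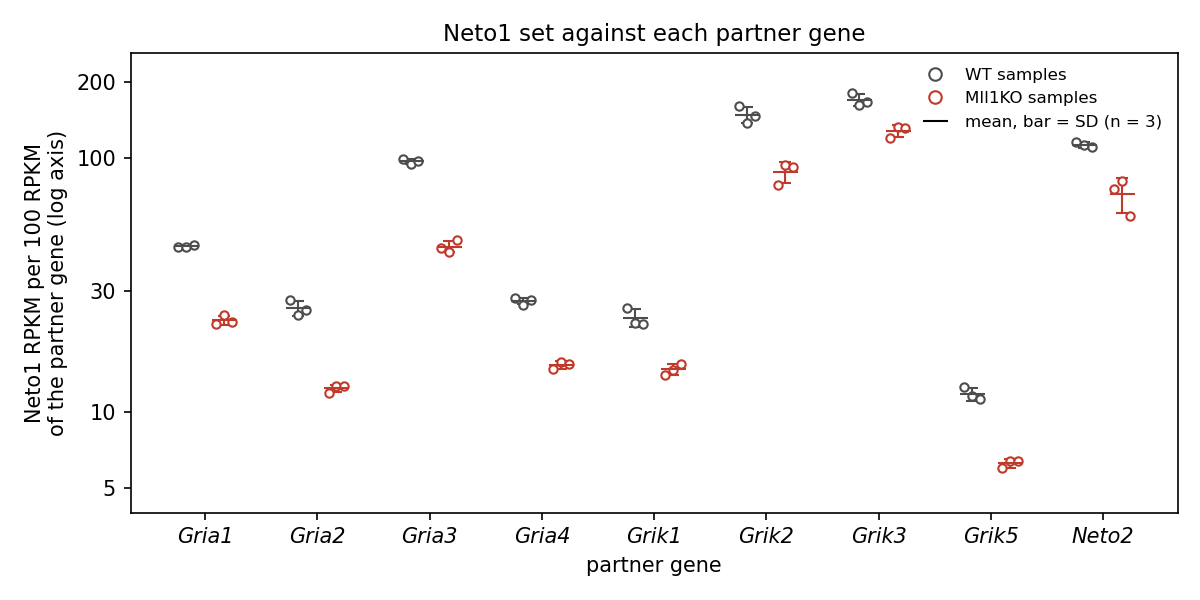
RPKM of *Neto1* per 100 RPKM of each partner gene (log axis), with 1 open circle per sample, a horizontal line at the mean of each genotype and bars for the SD (n = 3). All *Mll1KO* samples lie below all WT samples for every partner, with the mean ratio at 75.5% of WT for *Grik3* and 46.1% for *Gria3*, which follows in part from the choice of *Neto1*.

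The genes with the profile most like *Neto1* were found by Pearson correlation of log2(RPKM + 1) over the 6 samples. They were *Chrna3* (r = 0.9993), *Kit* (r = 0.9986), *Tenm3* (r = 0.9977), *A730046J19Rik* (r = 0.9974) and *Tmem2* (r = 0.9973). The 6 points form a WT and an *Mll1KO* cluster, and r is given as a description of genes that share this pattern, of which 70 had an r above 0.99. *Chrna3*, a nicotinic acetylcholine receptor subunit gene, was at 45.4% of WT and *Kit*, a receptor tyrosine kinase gene, at 50.7%, while *Tenm3* was at 69.2%, *A730046J19Rik* at 70.5% and *Tmem2* at 63.6%.

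Of 45 other genes of the pathway, 41 were listed, and 6 were called lower and 7 higher in *Mll1KO*, where 14.5% of all genes were called lower and 8.81% higher. Their median log2 fold change was -0.01, against -0.03 over all genes. *Cacng7*, *Cacng8*, *Cnih3* and *Syndig1* were not listed. Without WT sample a the count of lower genes was 2, where 10.8% of all genes were called lower, and without *Mll1KO* sample c it was 3, where 9.29% were. With the libraries scaled to rod genes, 34 were called lower and 0 higher, where 84.7% of all genes were called lower and 1.76% higher. Of the pathway genes called with library totals, *Abhd6* (-0.01) and *Adar* (-0.16) then changed direction.

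Auxiliary subunits of AMPA receptors, which set their trafficking and gating, went both ways. Of 13 genes 4 were called lower and 2 higher, with a median of -0.10, where 14.5% of all genes were called lower and 8.81% higher. *Shisa6* was lowest, with 3.46, 3.09 and 2.94 RPKM in the WT samples and 2.30, 2.37 and 2.16 in the *Mll1KO* samples (log2 fold change -0.34, limma adjusted p = 0.00359). All *Mll1KO* samples were below WT, as for *Cacng4* (-0.22, limma adjusted p = 0.0221) and *Olfm1*, the most abundant of the list (-0.15, limma adjusted p = 0.0297). *Cacng3*, another gene of the transmembrane AMPA receptor regulatory proteins, was called with overlapping samples (-0.25, limma adjusted p = 0.0436). The call of *Cacng3* was lost without WT sample a (-0.17), WT sample b (-0.25), *Mll1KO* sample a (-0.23) or *Mll1KO* sample b (-0.21). It was lost under TMM or RLE factors, no variance trend (adjusted p = 0.0552) and the replicate block (adjusted p = 0.0733) as well, the adjusted p reaching 0.127. That of *Cacng4* was lost without WT sample a (-0.19), WT sample b (-0.23), *Mll1KO* sample b (-0.16) or *Mll1KO* sample c (-0.23), with adjusted p up to 0.0724. *Olfm1* was not called without WT sample a (-0.13), WT sample c (-0.13) or *Mll1KO* sample c (-0.12), nor with TMM or RLE factors, with no variance trend (adjusted p = 0.0539) or with the replicate block (adjusted p = 0.059), with adjusted p up to 0.117. *Olfm3* was higher, with 2.44, 2.69 and 2.87 RPKM in the WT samples and 3.56, 3.47 and 4.37 in the *Mll1KO* samples (0.39, limma adjusted p = 0.00732), and was not called with the rod scaling (0.14, limma adjusted p = 0.143). *Prrt1* was higher as well (0.35, limma adjusted p = 0.0169), and not called without WT sample b (0.32, 0.0622) or *Mll1KO* sample c (0.33, 0.0646), its adjusted p reaching 0.678 with the libraries scaled to rod genes. Of these genes, those outside the naming rule were named after their values were seen.

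Among scaffolds and trafficking partners, 1 of 11 was called lower and 1 higher, where 14.5% of all genes were called lower and 8.81% higher. Nothing is read from these counts. The called genes encode related PDZ proteins that bind AMPA receptor tails. *Grip1* had 11.3, 10.6 and 10.3 RPKM in the WT samples and 8.12, 7.81 and 7.98 in the *Mll1KO* samples (log2 fold change -0.39, limma adjusted p = 0.000676), and was called in all settings that were run. *Grip2* went the other way, from 5.12 ± 0.172 to 6.47 ± 0.253 RPKM (SD, n = 3 each), at a log2 fold change of 0.29 (limma adjusted p = 0.00422), and was not called with the rod scaling (0.01, limma adjusted p = 0.896). *Dlg4*, which encodes the postsynaptic scaffold PSD-95 and was the most abundant of the list, was at 252.1 ± 15.3 and 244.9 ± 15.5 RPKM (SD, n = 3 each) and was not called (limma adjusted p = 0.659).

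Of 6 genes of secreted and surface proteins that cluster receptors from outside the cell, 2 were called higher, where 8.81% of all genes were. *C1ql3* had 12.8, 12.8 and 12.7 RPKM in the WT samples and 19.0, 15.9 and 17.7 in the *Mll1KO* samples (log2 fold change 0.42, limma adjusted p = 0.001), and *C1ql2* was at 0.35 (limma adjusted p = 0.00612). With the rod scaling neither was called, *C1ql3* being at 0.12 (limma adjusted p = 0.126) and *C1ql2* at 0.04 (limma adjusted p = 0.601). The products of these genes bind kainate receptors at some brain synapses. *C1ql1*, the most abundant of the list, was at 99.9 ± 5.03 and 110.6 ± 5.63 RPKM (SD, n = 3 each) and was not called (0.15, limma adjusted p = 0.0694), and neither were the pentraxin genes *Nptx1* (-0.06), *Nptx2* (0.16) and *Nptxr* (-0.13).

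In the list of AMPA receptor assembly in the endoplasmic reticulum, 1 of 5 genes was called. Over all genes 14.5% were called lower and 8.81% higher. The called gene, *Abhd6*, was higher at 0.29 (limma adjusted p = 0.00499, and 0.869 with the rod scaling), while *Cpt1c* was at -0.06 (limma adjusted p = 0.295). *Cpt1c* was the most abundant in WT (28.27 RPKM against 28.12 of *Porcn*), and *Porcn* in *Mll1KO* (27.30 against 27.15). *Frrs1l* (0.06), *Porcn* (-0.04) and *Sacm1l* (-0.04) were not called. Of the further receptor genes, *Grid1*, a delta receptor gene, was lower at -0.23 (limma adjusted p = 0.0208), and *Grik4* (0.04) was not called. The call of *Grid1* was lost without WT sample a (-0.21), WT sample c (-0.20) or *Mll1KO* sample c (-0.20) and with the replicate block (adjusted p = 0.0513), with adjusted p up to 0.0774. Of the RNA editing enzyme family, members of which recode *Gria2* and kainate receptor transcripts, *Adar* was higher at 0.15 (limma adjusted p = 0.0314), and *Adarb1*, the most abundant and the enzyme that edits the calcium site of *Gria2*, was at 0.08 (limma adjusted p = 0.248) and *Adarb2* at -0.04. The call of *Adar* was lost without WT sample b (0.13), WT sample c (0.16), *Mll1KO* sample a (0.15), *Mll1KO* sample b (0.14) or *Mll1KO* sample c (0.17) and with the replicate block (adjusted p = 0.0581), with adjusted p up to 0.124.

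Promoter windows from RefSeq on GRCm38.p6 were matched for 6 of the 10 members by symbol. In the 250 bases before the transcript start the letters CG, which read the same on both strands, were counted. Over 32851 windows 92.1% held at least 1 CG, with a median of 6. *Grik3* had 42, as many as only 0.865% of windows reached, *Grik2* had 20, *Gria2* 19, *Gria4* 16 and *Grik5* 8. *Neto2* had 30 and 0 in its 2 windows, and *Gria1*, *Gria3*, *Grik1* and *Neto1* had no entry. The windows of *Grik3* (chr4:125490446-125490695, plus strand) and *Grik5* (chr7:25072370-25072619, minus strand) are shown because they hold the most and the fewest CG of the matched Grik members and belong to the Grik members with the lowest and highest fold change. They are printed 5′ to 3′ with each CG in capitals.
Grik3: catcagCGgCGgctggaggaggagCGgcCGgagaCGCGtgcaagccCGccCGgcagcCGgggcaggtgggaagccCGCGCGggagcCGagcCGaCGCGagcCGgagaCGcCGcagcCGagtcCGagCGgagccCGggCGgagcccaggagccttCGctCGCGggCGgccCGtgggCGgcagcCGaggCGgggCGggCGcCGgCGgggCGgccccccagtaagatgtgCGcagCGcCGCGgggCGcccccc
Grik5: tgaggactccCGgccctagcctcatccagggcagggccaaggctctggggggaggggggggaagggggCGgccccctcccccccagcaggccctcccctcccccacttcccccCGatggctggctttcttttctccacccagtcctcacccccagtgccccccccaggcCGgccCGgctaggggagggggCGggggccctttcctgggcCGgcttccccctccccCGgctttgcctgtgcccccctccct
The counts describe these windows, and their relation to the expression values was not tested.

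Marker genes of the retinal cell types went both ways, and their part in the differences above was not tested. The lists share genes and are not separate evidence: *Vsx1*, *Cabp5* and *Irx6* stand in both BC lists, *Isl1* is counted for BCs and GCs, *Nefm* for HCs and GCs, and *Tfap2b* for HCs and ACs. Every listed marker had reads in all 6 samples. Of 15 BC markers, 7 were called lower and 8 not called, where 14.5% of all genes were called lower and 8.81% higher. Their median log2 fold change was -0.13. Their summed RPKM was 662.3, 650.9 and 640.9 in the WT samples and 549.5, 551.0 and 565.7 in the *Mll1KO* samples. *Vsx1*, the lowest, was at -0.68 (limma adjusted p = 0.00011), and *Bhlhe23*, the highest, at 0.09 (limma adjusted p = 0.215). Of 7 markers of OFF cone BCs, which receive photoreceptor signals through the receptors described here, 5 were called lower and 1, *Syt2*, higher (0.18, limma adjusted p = 0.0376). Their summed RPKM was 66.8, 66.5 and 66.7 in the WT samples and 54.0, 51.3 and 59.0 in the *Mll1KO* samples. *Cabp5*, which stands in both BC lists, was the most abundant, with means of 32.4 RPKM in WT and 30.4 in *Mll1KO*. Whether the sum is specific to OFF cone BCs was not tested. The median log2 fold change of these OFF cone BC markers was -0.22.

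Markers of HCs and GCs, which carry AMPA receptors, were mostly lower, where 14.5% of all genes were called lower and 8.81% higher. Of 8 HC markers 7 were called lower, with a median of -0.45, and their summed RPKM was 201.6, 202.2 and 198.3 in the WT samples and 145.8, 138.9 and 145.9 in the *Mll1KO* samples. *Nefm* was the most abundant, *Calb1* the highest (-0.13, limma adjusted p = 0.201) and *Slc4a3* the lowest on the log2(RPKM + 1) scale (-0.70, limma adjusted p = 1.52e-05). As a percentage of WT *Onecut1* (52.1%) and *Onecut2* (57.9%) lay below *Slc4a3* (60.4%). Of 9 GC markers 8 were called lower, with a median of -0.53, and the sums were 561.0, 523.3 and 549.1 in the WT samples and 434.4, 391.0 and 361.1 in the *Mll1KO* samples. *Sncg* was the most abundant over both genotypes, but in *Mll1KO* it lay below *Thy1* (108.1 against 117.6 RPKM). *Slc17a6* had the highest log2 fold change (-0.15, limma adjusted p = 0.159) and *Pou4f2* the lowest (-0.89, limma adjusted p = 0.000287). AC markers went both ways, with 5 of 10 called lower and 2 higher, a median of -0.09 and sums that overlapped, at 268.2, 254.3 and 266.1 in the WT samples and 250.4, 246.8 and 277.0 in the *Mll1KO* samples. *Slc32a1* was the most abundant AC marker, *Gad1* the highest (0.30, limma adjusted p = 0.00684) and *Gad2* the lowest (-0.49, limma adjusted p = 0.00165).

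Photoreceptor and glial markers were mostly higher, again as shares of each library. The counts below stand beside 14.5% of all genes called lower and 8.81% called higher. Of 10 rod markers 7 were called higher and 1 lower, and their summed RPKM was 15080, 14088 and 14573 in the WT samples and 18255, 18567 and 17984 in the *Mll1KO* samples, with *Pde6a* the highest (0.48, limma adjusted p = 0.000101) and *Nr2e3* the lowest (-0.36, limma adjusted p = 0.00946). Of 8 cone markers 6 were called higher and 1 lower, with sums of 340.4 to 371.5 in WT and 408.0 to 446.3 in *Mll1KO*. *Arr3* had the highest log2 fold change (0.66, limma adjusted p = 0.000358) and *Opn1sw* the lowest (-0.44, limma adjusted p = 0.00121). *Opn1mw* was the most abundant over both genotypes (90.2 RPKM in WT and 133.0 in *Mll1KO*), but in WT *Opn1sw* was above it (94.4 RPKM). Of 9 MG markers 5 were called higher and 1 lower, with *Glul* the most abundant and *Clu* the highest (0.68, limma adjusted p = 0.000111) and *Vim* the lowest (-0.47, limma adjusted p = 8.29e-05), and sums of 1407 to 1555 in WT and 1815 to 1900 in *Mll1KO*. *Gfap*, expressed by astrocytes and by stressed MG, was higher at 0.97 (limma adjusted p = 4.26e-05), and *Pdgfra* of the same list was not called, the summed RPKM being 6.99 to 7.69 in WT and 12.1 to 13.7 in *Mll1KO*. Endothelial and pericyte markers were called lower in 2 of 5, with *Kdr* the most abundant and the lowest (-0.73, limma adjusted p = 0.000115), *Pdgfrb* the highest (0.01, limma adjusted p = 0.949) and sums of 78.0 to 82.0 in WT and 54.8 to 61.9 in *Mll1KO*. The 3 listed microglia markers were not called, with *C1qb* the most abundant and the lowest (-0.12, limma adjusted p = 0.229), *Cx3cr1* the highest (0.08, limma adjusted p = 0.522) and sums of 13.4 to 13.8 in WT and 12.2 to 13.7 in *Mll1KO*. Of the markers of tissue next to the retina, *Ttr* and *Pmel* varied widely between samples of a genotype, and *Cryaa* did so in *Mll1KO* only. *Ttr*, the most abundant marker of pigment epithelium and lens, had 75.1, 65.8 and 101.3 RPKM in the WT samples and 54.8, 93.7 and 53.9 in the *Mll1KO* samples, and *Pmel* ran from 15.1 to 99.4 RPKM in the WT samples and from 9.37 to 34.0 in the *Mll1KO* samples. *Cryaa*, a lens crystallin gene, was highest in *Mll1KO* sample a at 32.1 RPKM, against 6.54 to 7.51 in WT. None of these 3 genes was called by limma, and *Rpe65*, *Tyr* and *Crygc* of the same list were not listed in the table. Of the other marker lists, *Lhx1* (HC), *Pou4f3* (GC), *Pax2* and *Olig2* (astrocytes and oligodendrocyte precursors), *C1qa*, *P2ry12* and *Tmem119* (microglia) and *Kcnj8* (pericytes) were not listed.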

How the data were processed

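RNA from 3 *Mll1KO* and 3 WT retina samples at P14 was sequenced as single-end reads. Per the submitters' processing notes and the Methods, the authors aligned reads with STAR 2.0.4b to mm10 and counted them per gene with featureCounts 1.45. The Methods write the Ensembl build as GRCh38.76. The authors kept a gene if its CPM exceeded 5 in 5 or more samples. The deposited values are RPKM, made by the authors from these counts. The deposited table also holds log2 fold changes, log2 mean CPM, p-values and FDR of the authors' comparison, which were not used. Its 11404 lines hold 11339 genes, since 59 gene IDs stand in more than 1 line with equal values, and 18 gene symbols turned into dates were restored from gene IDs. Of the IDs, 11323 matched GENCODE vM21 (GRCm38).

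Read totals per library and gene lengths were worked out from RPKM as the values that give whole reads in every sample within 0.01 reads, which held for 100% of genes, and 9 genes allowed a second length. The recovered length was the annotated exon length for 53.4% of genes. Reads were used for depth, TMM and RLE factors and limma-voom. Whether counting used strand is not given in the sources used here.

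The design named the authors' tool, edgeR, for the case of a count table. As the unit is RPKM, edgeR was not used, and limma was run on log2(RPKM + 1), with a variance trend, no covariates and p-values adjusted by Benjamini-Hochberg over 11339 genes, called under 0.05. Shares were tested with exact permutation tests over samples. The procedure was tested on simulated reads with 200 of 11339 genes changed, in equal numbers up and down, at a dispersion of 0.00119. Of log2 changes of 1 and 0.5, 100% and 98% were called, with median fitted sizes of 0.89 and 0.45. Unchanged genes made up 4.35% of the calls. The data had 2643 calls, so the simulation does not cover a change in the make-up of the libraries. Members and gene lists were chosen with earlier results of these data known. Named were all members and *Kmt2a*, from each pathway list the highest and lowest called gene and the most abundant one (lists of at most 6 genes in full), from each marker list the most abundant, highest and lowest gene, and the 5 genes most correlated with *Neto1*. Abundance within a list was ranked by the mean RPKM over both genotypes. Some genes that this rule would name are left out of the text. The marker lists were for BC, OFF cone BC, HC, AC, GC, rods, cones, MG, astrocytes with oligodendrocyte precursors, microglia, endothelium with pericytes, and pigment epithelium with lens. Alternatives were pseudocounts of 0.1 and 5, a mean RPKM of at least 1, TMM and RLE factors, an equal sum over rod genes, limma-voom, no variance trend, a term for the replicate letter, each sample left out, and shares of reads not divided by length. R 4.3.3, limma 3.58.1, Python 3.11.15, numpy 2.4.6 and pandas 2.3.3 were used.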

Additional observations from a re-analysis of the deposited data

How the results depend on the processing

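Over all results and alternatives, 587 comparisons with the reported value counted as the same, 47 lost a call, 5 gained one, 17 moved and 9 changed direction. For single genes, the same meant an unchanged direction and side of the threshold, and for *Neto1*, without a test, a change within the spread. For shares it meant direction only. Counts of genes could differ modestly, as with 3 members called lower under the replicate block in place of 4. Changes of direction were counted apart from calls, so *Gria2* and *Gria3*, called lower with the rod scaling, are not among the 5. *Grik1*, *Grik3*, *Grip1*, *Shisa6* and *Kmt2a* were called in every setting run. With an equal sum over rod genes, 9801 genes were called in place of 2643, 9 members in place of 4, and 34 pathway genes lower and 0 higher in place of 6 and 7. Of the members and the pathway genes called as reported, *Gria2* (-0.27), *Gria3* (-0.18), *Abhd6* (-0.012) and *Adar* (-0.16) changed direction, and other pathway genes were not followed singly. This scaling lowers nearly all genes by its construction. With TMM factors 2 members were called lower and *Gria1* was at 0.00091, and with RLE factors 2 members and 0.0032, against -0.03 as reported, and *Gria1* was called in none of these. The share of higher genes among all calls was 37.8% as reported, 51.9% with TMM, 53.1% with RLE and 2.04% with the rod scaling. Pseudocounts of 0.1 and 5 placed *Neto1* at -0.98 and -0.46.

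Leaving out 1 sample gave 1704 (without WT sample b) to 2536 called genes, with 1757 without *Mll1KO* sample c. It gave 2 to 4 members called lower, 2 without WT sample b or *Mll1KO* sample b, and 2 to 5 pathway genes called lower. Fewer samples carry these fits. *Gria1* ran from -0.062 to 0.00035 over single samples left out, the latter without WT sample a. The difference of its share, -0.02 percentage points as reported, was 0.45 without WT sample a and 0.28 without *Mll1KO* sample b, none called, and over single samples left out it ran from -0.35 to 0.45. The cause was not tested. Whether the replicate letters pair the samples was not settled. Deviations from the group means of same-lettered samples correlated at -0.04, -0.19 and -0.01, which cannot decide it with 3 samples per genotype. With the replicate block 2242 genes, 3 members lower and 3 pathway genes lower were called. Depth limits *Neto1* and *Grik4* most, at 196 and 151 reads in the least covered sample.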
